A study of Mus musculus with 27 samples.

Results

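The endoplasmic reticulum (ER) stress genes were the 10 genes Hspa5, Hsp90b1, Sdf2l1, Dnajb9, Herpud1, Xbp1, Atf4, Ddit3, Atf3 and Trib3, taken by symbol from the probe annotation of the array. All 10 were measured, among 18193 genes in all. Total RNA of the epididymal adipose tissue (EAT) came from 27 male C57BL/6J mice, each with an Affymetrix array of its own. The mice were 5 weeks old on arrival and had a standard diet for 1 week. Feeding then lasted 18 weeks, with 9 mice on a Western diet to which 0.05% quercetin was added (WQ), 9 on that diet without quercetin (WD) and 9 on the AIN93G diet (control). The Western diet had 39.9% of energy from fat, 34.0% of energy from sucrose, and 0.15% cholesterol. Quercetin, a plant flavonol, was never given without the Western diet. Each cage held 3 mice, and which mice shared a cage was not stated, so that an effect of a cage and the spread between mice cannot be told apart. EAT is bulk tissue, and in bulk tissue fewer cells of a type and less RNA per cell cannot be told apart.

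The ER folds secreted and membrane proteins, and unfolded protein in it starts the unfolded protein response. Its sensors are IRE1, which splices Xbp1 mRNA into the form that encodes the active factor, PERK, which phosphorylates eIF2alpha and so favours translation of Atf4, and ATF6, which is cut in the Golgi to release a factor. Their targets are chaperones that hold unfolded protein, genes for the degradation of misfolded protein, and, under lasting stress, Ddit3 (CHOP) and Trib3. In obese adipose tissue this response is studied for its ties to inflammation and insulin resistance. The arrays read total mRNA, and they separate neither spliced from unspliced Xbp1 nor translated from untranslated Atf4.

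The promoters of 5 of the genes are shown because they carry the letters by which this family is known to be regulated, or because their mRNA differed most between the diets. Each is the 250 bases before the start of the gene in RefSeq GRCm38.p6, 5′ to 3′ on the strand of the gene, with matches in capitals. The ER stress response element, ERSE, was searched on both strands as CCAAT, 9 bases of any kind and CCACG, and ERSE-II as ATTGG, any base and CCACG. In Sdf2l1 the capitals mark every CCAAT and CCACG, on either strand. In Atf3, and in the first capitals of Herpud1, they mark the core of the C/EBP-ATF element, TGATGNAA, on the other strand.
Hspa5, chr2:34771840-34772089, plus strand: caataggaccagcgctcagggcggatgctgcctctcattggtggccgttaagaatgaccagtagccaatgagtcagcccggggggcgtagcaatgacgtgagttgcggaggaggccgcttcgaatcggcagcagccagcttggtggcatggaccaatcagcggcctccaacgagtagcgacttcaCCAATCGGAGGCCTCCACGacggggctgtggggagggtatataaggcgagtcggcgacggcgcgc
Hsp90b1, chr10:86705445-86705694, minus strand: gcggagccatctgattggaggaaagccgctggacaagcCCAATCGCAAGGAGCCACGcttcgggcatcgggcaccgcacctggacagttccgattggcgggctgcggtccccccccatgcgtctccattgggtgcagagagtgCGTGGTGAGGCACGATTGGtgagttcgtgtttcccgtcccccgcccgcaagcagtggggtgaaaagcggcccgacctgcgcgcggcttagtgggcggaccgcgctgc
Herpud1, chr8:94386179-94386428, plus strand: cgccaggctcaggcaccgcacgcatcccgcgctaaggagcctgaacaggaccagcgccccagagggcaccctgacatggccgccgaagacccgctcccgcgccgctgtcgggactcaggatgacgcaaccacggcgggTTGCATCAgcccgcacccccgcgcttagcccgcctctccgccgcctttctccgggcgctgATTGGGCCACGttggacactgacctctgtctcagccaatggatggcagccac
Sdf2l1, chr16:17132384-17132633, minus strand: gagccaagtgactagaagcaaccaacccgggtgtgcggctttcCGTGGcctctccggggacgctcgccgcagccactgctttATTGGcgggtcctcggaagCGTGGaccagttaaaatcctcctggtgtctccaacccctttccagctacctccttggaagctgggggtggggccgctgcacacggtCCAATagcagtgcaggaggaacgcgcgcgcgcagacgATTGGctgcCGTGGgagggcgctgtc
Atf3, chr1:191183334-191183583, minus strand: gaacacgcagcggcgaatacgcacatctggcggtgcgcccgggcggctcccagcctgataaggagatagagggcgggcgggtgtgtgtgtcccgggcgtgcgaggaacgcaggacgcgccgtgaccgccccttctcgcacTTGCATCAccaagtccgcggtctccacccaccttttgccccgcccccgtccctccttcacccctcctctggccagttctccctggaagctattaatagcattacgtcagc

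The full ERSE was in 37 of 32851 promoter windows of this length (0.113%), and of the 10 genes Hspa5 and Hsp90b1 had it. Hspa5 had 1 copy, whose last base lay 47 bases before the start, and Hsp90b1 had 2 copies, 1 on each strand. ERSE-II was in 10 windows (0.0304%), that of Herpud1 among them. The C/EBP-ATF core was in 3.45% of windows and in 2 of the 10 genes, Atf3 and Herpud1. The separate parts were common: CCAAT was in 33.8% of windows and in 7 of the 10 genes, and CCACG in 28.3% of windows and in 6 of the 10 genes. TGACG, the core of the cyclic AMP response element, was in 17.8% of windows and in 6 of the 10 genes, and TGACGTGG, an element bound by XBP1 and ATF6, in 0.563% of windows and in none of the 10 genes. A match is a run of letters, and binding was not measured.

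The deposited signals were linear intensities, and the median of an array lay between 25.1 and 54.3. The log2 signal given below is the log2 of the quantile normalized intensity, with intensities under 1 raised to 1. The mean of 9 adipocyte markers lay between 12.09 and 12.35 in WQ, 12.03 and 12.29 in WD, and 11.78 and 12.33 in control mice. On 8 arrays, the mean of markers of another tissue was past a cut above the median array (4 log2 units, or 2 for lymph node). These were the testis markers on WQ replicate 5, WD replicate 7 and control replicate 6, hepatocyte markers on WD replicates 4 and 6, smooth muscle markers on control replicates 2 and 4, and lymph node markers on control replicate 3. Other arrays had raised markers short of the cut. The hepatocyte mean was 9.03 on WQ replicate 8, 8.75 on control replicate 1 and 8.41 on WD replicate 5, against 5.13 on the median array. Values without the 8 arrays are thus not free of other tissue. The labels give EAT as the tissue, and their extraction text names liver. For some of the genes and counts below, values without these 8 arrays are given as well. For others, such as Atf6 and Asns, they are not given. The part of other tissue in the results was not tested.

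The 10 genes lay between the middle and the top of the range of the array. Hspa5, Xbp1 and Hsp90b1 were at the 99.0, 98.8 and 98.2 percentiles of the mean signal over all genes, Dnajb9 and Atf4 at 94.9 and 92.3, and Herpud1 at 81.4. Ddit3, Atf3 and Sdf2l1 were at 72.6, 69.0 and 68.5, and Trib3 was at 48.9. The signals of different probe sets are not on a common scale, so these ranks place a gene on the array and do not compare amounts of mRNA.

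**Figure D1:**
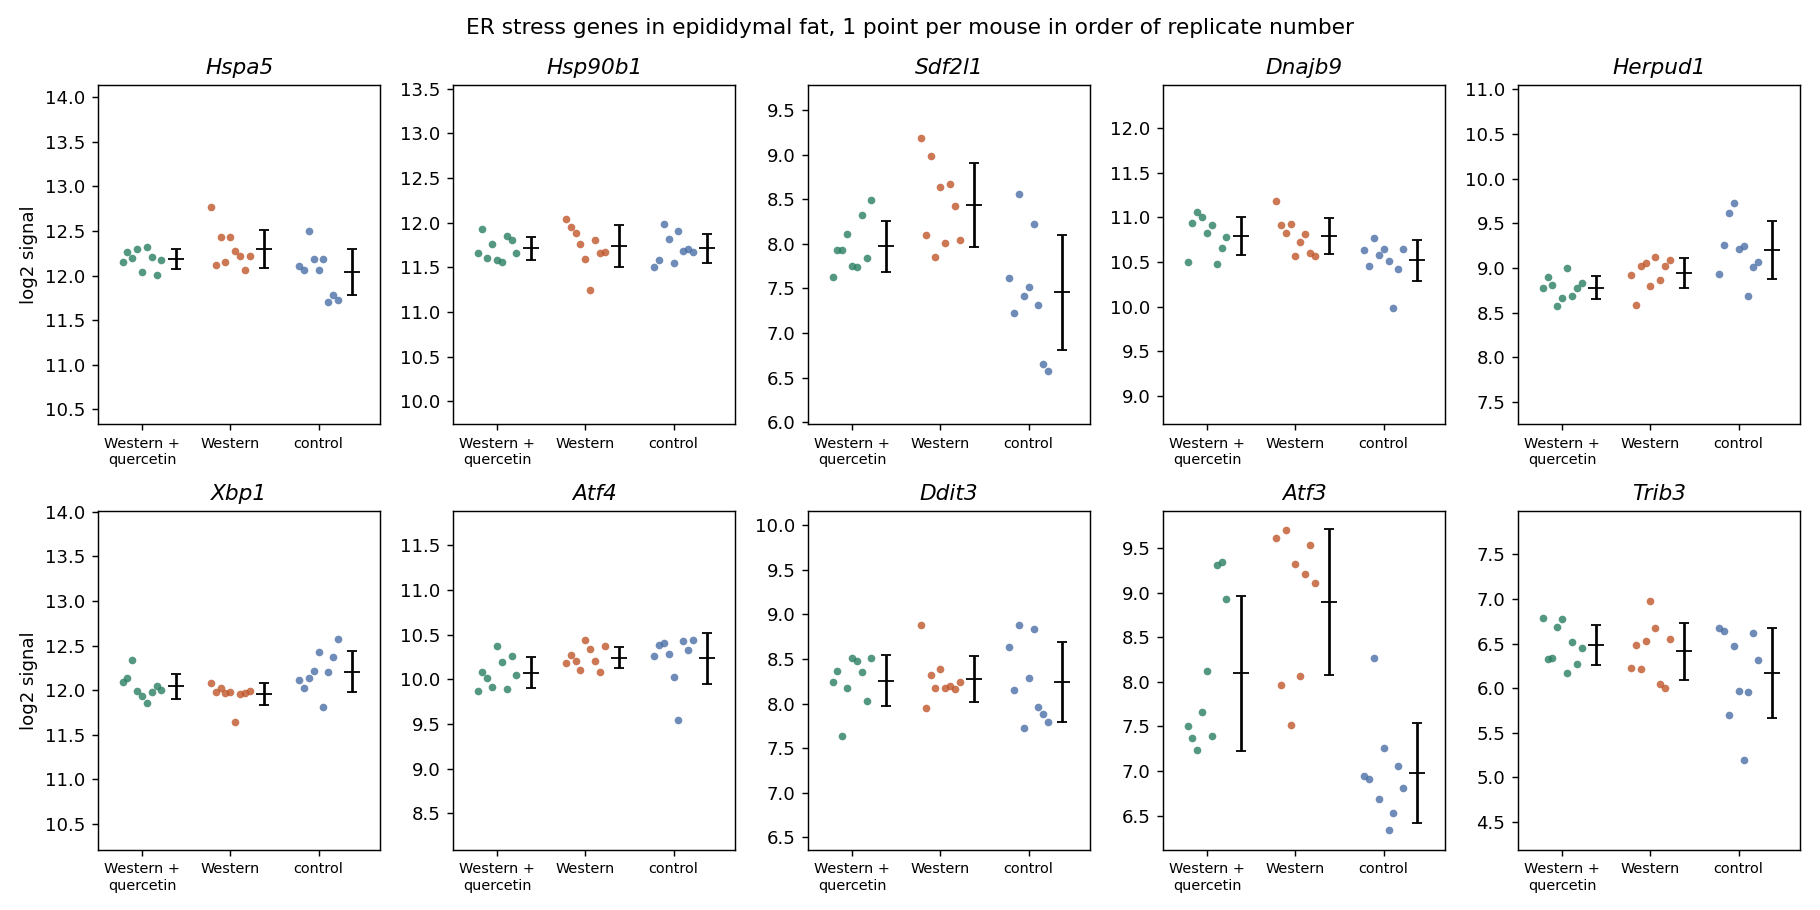
Log2 signal of the 10 ER stress genes in EAT, with each point a mouse, drawn from left to right in WQ, WD and control mice (9 each), and the bar with its cross line the mean ± SD. The vertical axes all span the same number of log2 units. Atf3 and Sdf2l1 have the widest differences, and 6 of the 9 WD mice have more Atf3 than the highest control mouse at 8.26.

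The Western diet raised 2 of the 10 genes, Atf3 and Sdf2l1, and lowered 1, Xbp1, and the other 7 did not pass the test (limma on all 27 arrays, Benjamini-Hochberg over all genes, adjusted p under 0.05). By the same test 11.3% of all genes were higher and 6.44% lower in WD than in control mice. In either direction these were 3 of the 10 genes, against 17.7% of all genes. At an unadjusted p under 0.05, 6 of the 10 differed, in a background of 17.6% of all genes higher and 13.1% lower. The median log2 fold change of the 10 was 0.14, and that of all genes was 0.00. In none of the 10 did the WD and control mice separate without overlap, against 0.951% of all genes higher and 0.346% lower without overlap. The same held for the 10 genes between WQ and WD mice (0.214% of all genes higher and 0.055% lower without overlap) and between WQ and control mice (0.231% higher and 0.022% lower). By limma without the 8 arrays, 3 of the 10 were higher and 1 was lower in WD than in control mice. The same fit had 10.6% of all genes higher and 9.87% lower.

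Atf3 encodes a transcription factor that many stresses induce and that macrophages also make on activation. Its log2 signal had a lowest value of 7.24, a median of 7.66 and a highest value of 9.34 in WQ mice. The same values were 7.52, 9.20 and 9.70 in WD mice, and 6.34, 6.91 and 8.26 in control mice. Of the 9 WD mice, 6 lay above every control mouse, and all 9 above the control median. WD replicates 2, 4 and 6, at 7.96, 7.52 and 8.07, were the low ones, and control replicate 3, at 8.26, was the only control mouse above them. The mean was 8.89 ± 0.82 in WD and 6.98 ± 0.56 in control mice (SD, n = 9), a log2 fold change of 1.91 (SE 0.33, limma adjusted p = 0.000203), or 3.77-fold. The exact two-sided permutation test over 48620 splits gave p = 0.000206. Without the 8 arrays the log2 fold change was 2.28 (limma adjusted p = 0.000555).

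The WQ mice were divided for Atf3. Replicates 7, 8 and 9 had 9.31, 9.34 and 8.92, among the WD mice, and the other 6 had between 7.24 and 8.12. Replicate 9, like those 6, lay below 6 of the 9 WD mice. The mean was 8.10 ± 0.87 in WQ and 8.89 ± 0.82 in WD mice (SD, n = 9). The log2 fold change of -0.80, with a 95% interval between -1.48 and -0.11, did not pass (limma adjusted p = 0.266, exact permutation p = 0.0615). Against control mice Atf3 was higher in WQ mice by a log2 fold change of 1.12 (limma adjusted p = 0.0416). That call is not firm. It was lost when any of control replicates 2, 4, 5, 6, 7, 8 and 9 or WQ replicates 4, 5, 7, 8 and 9 was left out (limma adjusted p between 0.0526 and 0.0942), and without the 8 arrays (log2 fold change 1.17, limma adjusted p = 0.0563).

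Macrophage markers moved with Atf3. All 17 markers of the list, among them Adgre1 (F4/80), Cd68 and Itgax (CD11c), were higher in WD than in control mice, with a median log2 fold change of 1.53. None of the 17 passed between WQ and WD mice, with a median of -0.77, and 7 of the 17 were higher in WQ than in control mice. When the 8 arrays were left out, 5 of the 17 were lower in WQ than in WD mice, against 0.616% of all genes lower and 0.929% higher. These were C1qa (-0.84), C1qb (-0.95) and C1qc (-0.90), the chains of complement C1q, and the Fc receptors Fcgr1 (-1.20) and Fcgr3 (-0.98), with limma adjusted p of at most 0.0473. The median of the 17 was then -0.95, and 6 were higher in WQ than in control mice. The mean log2 signal of the 17 lay between 8.46 and 10.45 in WQ, 9.49 and 10.995 in WD, and 8.13 and 9.64 in control mice. Summed signals of the list lay between 14090 and 41343 in WQ, 23243 and 53898 in WD, and 11288 and 25668 in control mice, and no marker was at the floor on all arrays. The 3 WQ mice with high Atf3, replicates 7, 8 and 9, also had the highest marker means of their diet (10.45, 10.45 and 10.24). The 3 WD mice with low Atf3, replicates 2, 4 and 6, had the lowest marker means of theirs (10.06, 9.49 and 9.81).

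Relations with the macrophage mean were computed within each diet for all 10 genes, 30 in all. After Benjamini-Hochberg adjustment 2 of the 30 passed by Pearson's r, both of Atf3. In WQ mice r was 0.95 (exact permutation p = 2.8e-05, adjusted 0.000827) and Spearman's rho 0.97 (exact p = 0.000165, adjusted 0.00496). Leaving out the pair of WQ mice at the greatest distance from their median marker mean gave an r of 0.97. In WD mice r was 0.96 (exact permutation p = 0.000262, adjusted 0.00393), rho was 0.87 (exact p = 0.00451, adjusted 0.0676), and the r of the 7 mice nearest that median was 0.89. In control mice the relation of Atf3 did not pass (r = 0.69, exact permutation p = 0.0415, adjusted 0.178) and rested on 2 mice, without which r was 0.24. The part of macrophages in the differences between diets was not tested.

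**Figure D2:**
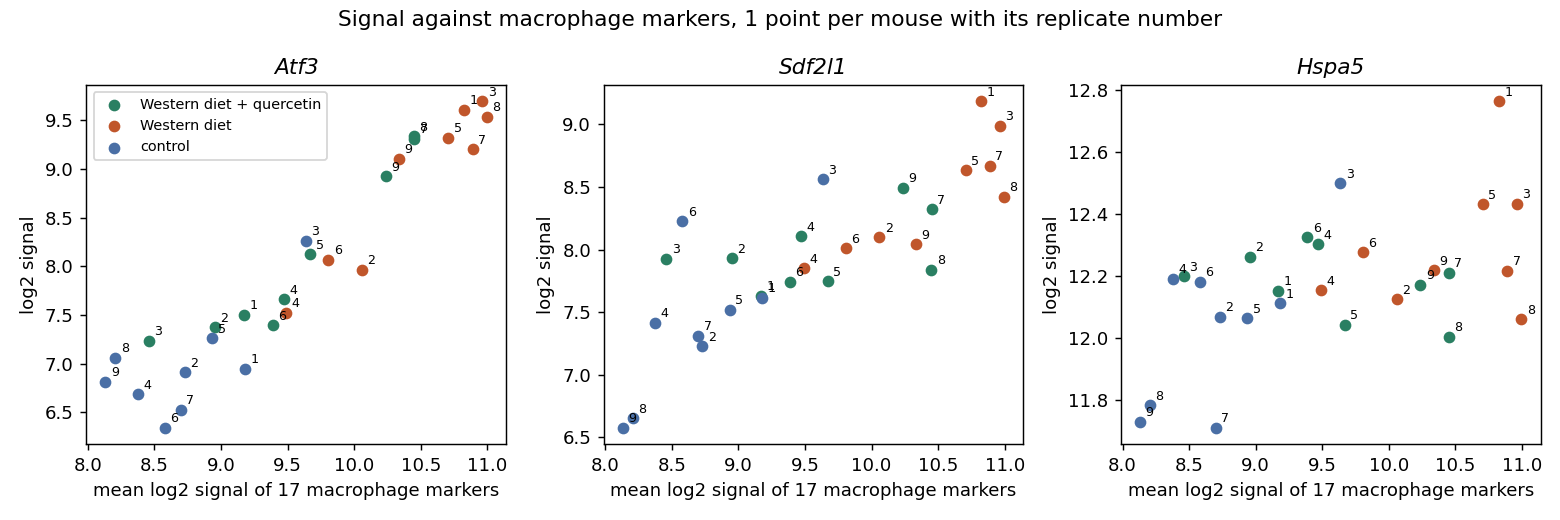
Log2 signal of Atf3, Sdf2l1 and Hspa5 against the mean log2 signal of 17 macrophage markers, with each point a mouse and its replicate number beside it (WQ green, WD orange, control blue). Atf3 follows the markers in WQ and WD mice, with WQ replicates 7, 8 and 9 among the WD mice, and Hspa5 lies between 12.00 and 12.32 in all 9 WQ mice.

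Sdf2l1 encodes an ER-resident partner of the chaperone complexes that keep unfolded protein soluble. Lowest, median and highest log2 signals were 7.63, 7.93 and 8.49 in WQ mice. In WD mice the values were 7.85, 8.42 and 9.19, and in control mice 6.58, 7.42 and 8.56. All 9 WD mice lay above the control median, and 4 of the 9 above every control mouse. Control replicates 3 and 6, at 8.56 and 8.23, were the high control mice and were also those with lymph node and testis markers, while control replicates 8 and 9, at 6.65 and 6.58, were the low ones. The mean was 8.43 ± 0.47 in WD and 7.46 ± 0.65 in control mice (SD, n = 9), a log2 fold change of 0.98 (SE 0.22, limma adjusted p = 0.00205, exact permutation p = 0.00263), or 1.97-fold. Without the 8 arrays it was 1.43 (limma adjusted p = 0.000307). By the methods' own test with Benjamini-Hochberg adjustment the call was lost (adjusted p = 0.0586).

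With quercetin, Sdf2l1 had a narrower spread and a lower mean, 7.97 ± 0.29 in WQ and 8.43 ± 0.47 in WD mice (SD, n = 9). Of the 9 WQ mice, 8 lay below the WD median and 4 below every WD mouse. The log2 fold change of -0.46 (95% interval between -0.91 and -0.02) did not pass over all genes (limma adjusted p = 0.343), and the exact permutation test of Sdf2l1 alone gave p = 0.0224. Against control mice, 9 of 9 WQ mice lay above the control median, with a log2 fold change of 0.51 (limma adjusted p = 0.154). Without the 8 arrays it was 0.86 and passed (limma adjusted p = 0.0185), and without control replicate 3 alone it was 0.65 and passed (limma adjusted p = 0.0358). The relation of Sdf2l1 with the macrophage markers did not pass in any diet (r = 0.48 in WQ, 0.83 in WD and 0.78 in control mice, adjusted exact permutation p between 0.0697 and 0.480).

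Hspa5 encodes BiP, the main Hsp70 chaperone of the ER and the protein that holds the sensors inactive. Its log2 signal had a lowest value of 12.00, a median of 12.20 and a highest value of 12.32 in WQ mice. In WD mice the values were 12.06, 12.22 and 12.76, and in control mice 11.71, 12.07 and 12.50. Control replicates 7, 8 and 9, between 11.71 and 11.78, were below every other mouse, and WD replicate 1, at 12.76, was above every other. None of these mice is among the 8 arrays left out. The log2 fold change of WD over control mice was 0.26 (SE 0.09, 1.20-fold), just short of the threshold (limma adjusted p = 0.0548, exact permutation p = 0.0331). It passed without the 8 arrays (0.46, limma adjusted p = 0.00527), when arrays were only shifted to a common median (the median shift, 0.41, limma adjusted p = 0.0206), with the mean of all its probe sets (0.29, limma adjusted p = 0.00581), and when any of control replicates 3, 4 and 6 or WD replicates 2 and 8 was left out (limma adjusted p of at most 0.0492). Between WQ and WD mice the log2 fold change was -0.11 (95% interval between -0.31 and 0.08), and between WQ and control mice 0.15 (limma adjusted p = 0.381). The last was 0.32 without the 8 arrays (limma adjusted p = 0.0556), and it passed with the mean of all probe sets (0.24, limma adjusted p = 0.0475) and at 1 of the other probe sets of Hspa5 (0.54, limma adjusted p = 0.00443), while at another it was 0.038 (limma adjusted p = 0.889).

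Dnajb9 encodes ERdj4, a partner of BiP that presents misfolded protein for degradation and restrains IRE1. In WQ mice its log2 signal ran between 10.48 and 11.06 with a median of 10.82. It ran between 10.56 and 11.18 in WD mice (median 10.81), and between 9.99 and 10.77 in control mice (median 10.58). Of the 9 WD mice 5, and of the 9 WQ mice 6, lay above every control mouse. The log2 fold change over control was 0.28 in WQ mice (limma adjusted p = 0.0836, exact permutation p = 0.0130) and 0.27 in WD mice (limma adjusted p = 0.0520, exact permutation p = 0.00930), and neither passed. The difference of WQ and WD mice was 0.00, with a 95% interval between -0.20 and 0.21. After the median shift the difference of WD and control mice was 0.44 and passed (limma adjusted p = 0.0116), and without the 8 arrays it was 0.31 and did not (limma adjusted p = 0.131). It also passed when any of control replicates 1 and 3, WD replicates 5, 8 and 9 or WQ replicates 1, 3 and 7 was left out (limma adjusted p between 0.0294 and 0.0482), and the difference of WQ and control mice passed without control replicate 3 (0.31, limma adjusted p = 0.0451).

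Hsp90b1 encodes GRP94, the Hsp90 of the ER. Its median log2 signal was 11.66 in WQ, 11.77 in WD and 11.68 in control mice, and the ranges of the 3 diets lay within 11.24 to 12.04. The log2 fold changes were 0.02 for WD over control, -0.02 for WQ over WD and 0.00 for WQ over control, with 95% intervals no wider than -0.20 to 0.20. WD replicate 6, at 11.24, was the lowest mouse and WD replicate 1, at 12.04, the highest. At the other probe set of Hsp90b1 the 3 log2 fold changes were -0.20, -0.17 and -0.37, and none passed (limma adjusted p of at least 0.0874). Hsp90b1 and Hspa5 both carry the full ERSE. At the probe sets used they had unequal differences in value between WD and control mice, 0.02 and 0.26, and the difference between the 2 was not tested.

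Herpud1 encodes HERP, a membrane protein that gathers the degradation machinery of the ER. Its log2 signal had a lowest value of 8.57, a median of 8.78 and a highest value of 9.0025 in WQ mice. In WD mice these were 8.58, 9.02 and 9.12, and in control mice 8.69, 9.21 and 9.73. All 9 WQ mice lay below the control median, and 3 below every control mouse. The mean was 8.78 ± 0.13 in WQ and 9.20 ± 0.32 in control mice (SD, n = 9), a log2 fold change of -0.42 (SE 0.10, limma adjusted p = 0.0154, exact permutation p = 0.00160). Control replicates 3 and 4, at 9.62 and 9.73, were the highest and were among the 8 arrays with markers of other tissues. Without the 8 arrays the log2 fold change was -0.19 and did not pass (limma adjusted p = 0.221). Between WD and control mice the log2 fold change was -0.25 (limma adjusted p = 0.0880). It passed without control replicate 7 (-0.32, limma adjusted p = 0.0215) and was -0.077 without the 8 arrays (limma adjusted p = 0.643). Between WQ and WD mice it was -0.16 (limma adjusted p = 0.534, exact permutation p = 0.0380).

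Xbp1 encodes the factor made by IRE1 splicing, which drives ER chaperones and is also needed by secretory cells. Its log2 signal had a lowest value of 11.86, a median of 12.00 and a highest value of 12.34 in WQ mice. In WD mice these were 11.65, 11.98 and 12.08, and in control mice 11.81, 12.20 and 12.58. All 9 WD mice lay below the control median. The mean was 11.96 ± 0.12 in WD and 12.21 ± 0.23 in control mice (SD, n = 9), a log2 fold change of -0.25 (SE 0.08, limma adjusted p = 0.0279, exact permutation p = 0.00814), or 0.840-fold. The call was lost without control replicate 5, 8 or 9 or WD replicate 6 (limma adjusted p between 0.0548 and 0.0648), with no normalization between arrays (-0.22, limma adjusted p = 0.228) and after the median shift (-0.11, limma adjusted p = 0.619). Its 3 other probe sets had log2 fold changes between -0.21 and -0.02 and did not pass. Between WQ and WD mice the log2 fold change was 0.09, and between WQ and control mice it was -0.16 (limma adjusted p = 0.224), and without the 8 arrays the last was -0.28 and passed (limma adjusted p = 0.0321).

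Atf4 encodes the factor that PERK signalling brings into translation. Its log2 signal had a lowest value of 9.87, a median of 10.05 and a highest value of 10.37 in WQ mice. In WD mice these were 10.09, 10.21 and 10.44, and in control mice 9.54, 10.32 and 10.44. Between WD and control mice the log2 fold change was 0.01 (95% interval between -0.19 and 0.20). The WQ mice were lower in value than both, with log2 fold changes of -0.17 against WD (limma adjusted p = 0.447, exact permutation p = 0.0283) and -0.16 against control mice (limma adjusted p = 0.328), and 6 of the 9 WQ mice were below every WD mouse. Control replicate 6, the array with the highest testis markers, was the lowest of all at 9.54, and without it alone the difference of WQ and control mice was -0.25 and passed (limma adjusted p = 0.0282). It was -0.26 without the 8 arrays (limma adjusted p = 0.0524). The probe set of Atf4 next in signal had log2 fold changes of 0.01 and 0.21 in these comparisons, opposite in sign.

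Ddit3 encodes CHOP, a factor of lasting ER stress tied to cell death. The lowest WQ mouse had a log2 signal of 7.64, the median 8.35 and the highest 8.51. In WD mice these were 7.95, 8.20 and 8.88, and in control mice 7.72, 8.15 and 8.87. The log2 fold changes were 0.04 for WD over control, -0.02 for WQ over WD and 0.02 for WQ over control, with limma adjusted p between 0.898 and 0.975. The control mice had the widest spread (SD 0.45, against 0.28 in WQ and 0.26 in WD mice), with replicates 3 and 6 at 8.87 and 8.83 and replicates 4 and 9 at 7.72 and 7.79. The 95% interval of WD over control ran between -0.27 and 0.35, and the data do not exclude a difference within it.

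Trib3 encodes a pseudokinase induced by ATF4 and CHOP that binds AKT. It had the lowest signal of the 10. Its lowest value, median and highest value were 6.17, 6.45 and 6.78 in WQ, 6.00, 6.48 and 6.98 in WD, and 5.20, 6.32 and 6.68 in control mice. The log2 fold changes of 0.24 for WD over control, 0.07 for WQ over WD and 0.31 for WQ over control did not pass (limma adjusted p between 0.308 and 0.926). Control replicates 3 and 6, at 5.70 and 5.20, were the lowest of all 27 mice.

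**Figure D3:**
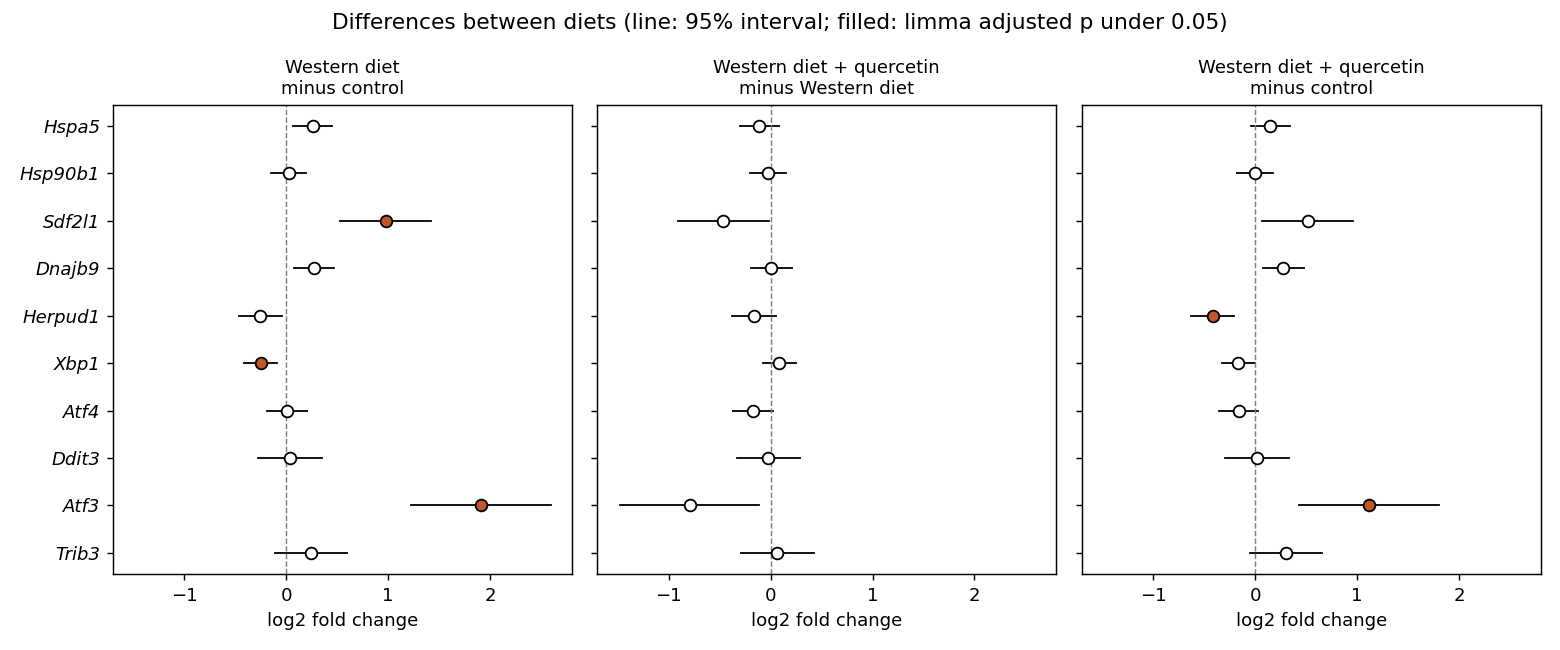
Log2 fold changes of the 10 ER stress genes in 3 comparisons, with the line the 95% interval and filled points the genes past the threshold (limma, adjusted over all 18193 genes). Atf3 at 1.91 and Sdf2l1 at 0.98 lie apart from the others in WD against control mice, and no point is filled for WQ against WD mice.

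None of the 10 genes passed between WQ and WD mice, in a background of 0.253% of all genes higher and 0.077% lower (0.33% in all). At an unadjusted p under 0.05 there were 2, Atf3 and Sdf2l1, both lower in value in WQ mice, in a background of 7.31% higher and 6.41% lower, and the methods' own test with Benjamini-Hochberg adjustment called none of the 10. The median log2 fold change of the 10 was -0.07, and that of all genes was 0.02. Between WQ and control mice Atf3 was higher and Herpud1 lower, in a background of 5% of all genes higher and 1.65% lower (6.66% in all). At an unadjusted p under 0.05 there were 5 of the 10, in a background of 14.5% higher and 7.36% lower. These comparisons share mice with the first, and so are not independent of it. With the 3 diets in 1 test (limma F test, adjusted p), Atf3 (0.000769), Sdf2l1 (0.00716) and Herpud1 (0.0157) passed, in a background of 16% of all genes. Xbp1 (0.0684) and Dnajb9 (0.0636) did not. The choice of these 10 genes was made with earlier results of these arrays known.

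The RNA quality ratio of the arrays also differed between the diets. The ratio of the 3′ to the 5′ signal of actin, on the log2 scale, was 1.14 ± 0.19 in WQ, 0.79 ± 0.12 in WD and 1.11 ± 0.29 in control mice (SD, n = 9). It was higher in WQ than in WD mice by 0.35 (exact permutation p = 0.000123) and lower in WD than in control mice (difference -0.33, exact permutation p = 0.00362). The same ratio of Gapdh was higher in WQ than in WD mice by 0.24 (exact permutation p = 0.00699). WQ and control mice differed in value by 0.03 and 0.05 in these ratios. The part of RNA quality in the differences of the 10 genes was not tested.

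Across mice, the 10 genes did not move as 1 block. Pearson's r was taken over 27 arrays with the mean of each diet subtracted, as a description of arrays that share their normalization. Of the 45 pairs, Hspa5 with Sdf2l1 (0.76), Ddit3 with Sdf2l1 (0.70) and Hspa5 with Ddit3 (0.65) were highest. WD replicate 1 was the highest mouse of its diet in all 3 of these genes, and control replicate 3 was the highest of the controls in all 3. Atf4 and Trib3 went together (0.50) and had negative values with Hspa5, Sdf2l1, Ddit3 and Hsp90b1, the lowest being Trib3 with Sdf2l1 (-0.53). Control replicate 6, with high testis markers, was the lowest of all 27 mice in Atf4 (9.54) and in Trib3 (5.20). It was also the control mouse next to the highest in Ddit3 (8.83) and Sdf2l1 (8.23). These r values were not computed without that mouse. Xbp1 was negative with Ddit3 (-0.48) and Sdf2l1 (-0.30).

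**Figure D4:**
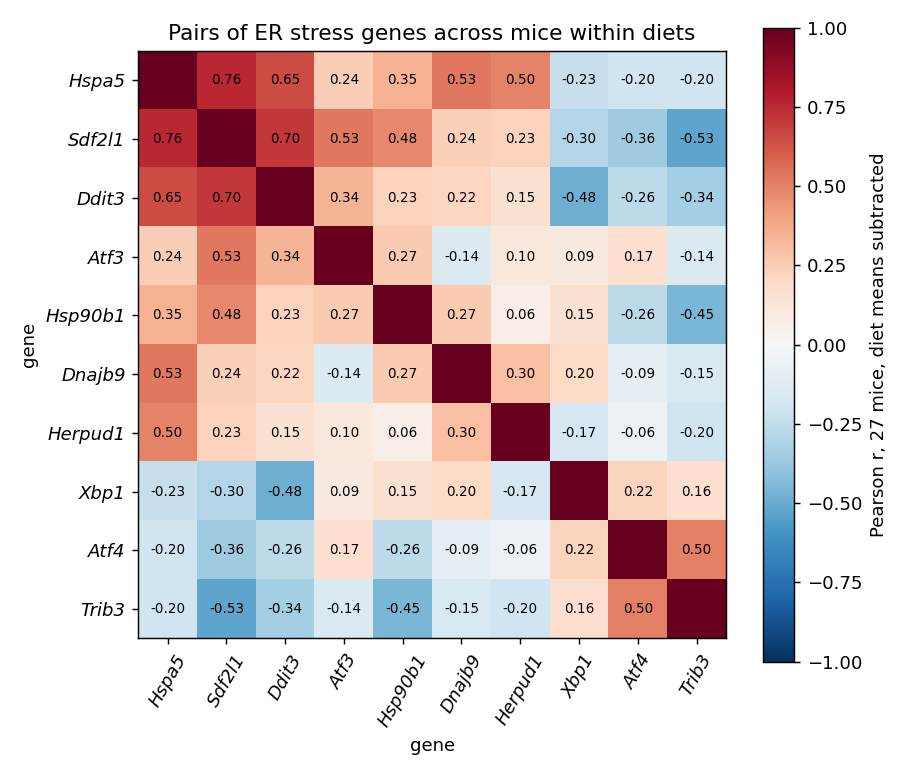
Pearson's r between the log2 signals of each pair of the 10 ER stress genes over 27 mice, with diet means subtracted (red positive, blue negative). Hspa5, Sdf2l1 and Ddit3 form a group with r of 0.65 to 0.76, and Atf4 and Trib3 a pair with r of 0.50. Control replicate 6 was the lowest of the 27 mice in both genes of that pair.

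Among 9087 genes of the upper range of signal, those most like each of the 10 were found by the same r. The genes most like Hspa5 were Manf (0.85), an ER-resident survival factor that binds BiP, Nt5m (0.79), a mitochondrial nucleotidase, and Creld2 (0.77), another ER stress protein. Nearest to Atf3 were Fcer1g (0.96), the signalling chain of immunoglobulin receptors, Rab7b (0.94), a small GTPase of late endosomes, and Ifi30 (0.94), a lysosomal thiol reductase of antigen presenting cells. Sdf2l1 was nearest to Qpct (0.85), which cyclizes the ends of chemokines, Entpd1 (0.82), the ectonucleotidase CD39, and Zbed4 (0.79), a zinc finger protein. Qpct, Entpd1, Fcer1g, Rab7b and Ifi30 were all higher in WD than in control mice (log2 fold changes between 0.67 for Entpd1 and 1.69 for Rab7b, limma adjusted p of at most 0.00117). Manf (0.16), Nt5m (0.029), Creld2 (-0.28) and Zbed4 (0.21) did not pass, and without the 8 arrays Manf had 0.59 and passed (limma adjusted p = 0.00896). Xbp1 was nearest to Prpf38b, Hmgn3 and Chd1 (0.85 each), and Atf4 to Nus1 (0.85), Mapre1 (0.83) and Atp13a1 (0.82). The nearest to Hsp90b1 were Eif4g2 (0.82), Morc3 (0.76) and Hadhb (0.71), and those to Trib3 were Dmpk (0.79), Tnpo3 (0.78) and Hcfc1r1 (0.77). Dnajb9 was nearest to Mtmr4 (0.75), Apoo (0.71) and Sfpq (0.70), Ddit3 to Dhx16 (0.76), Sh3gl1 (0.73) and Ube2c (0.73), and Herpud1 to Ttc1 (0.69), Rnf167 (0.64) and Kars (0.64). Of the genes nearest to these 7, Ube2c was higher (0.85) and Hmgn3 (-0.40) and Hcfc1r1 (-0.26) were lower in WD than in control mice, and the others did not pass.

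The rest of the pathway was read from lists of other genes. Their counts for WD against control mice stand beside 11.3% of all genes higher and 6.44% lower, and without the 8 arrays beside 10.6% higher and 9.87% lower. Of 32 other ER chaperones and folding enzymes, 9 were higher in WD than in control mice and none was lower, with a median log2 fold change of 0.14. Pdia5 (0.64, limma adjusted p = 0.000491) and Pdia3 (0.40, limma adjusted p = 0.00853), both disulfide isomerases, were among them, with the prolyl isomerase Fkbp7 (0.39) and Creld1 (0.42). Pdia3 was the only one of the list that passed between WQ and WD mice, with 10.50 ± 0.20 in WQ and 10.98 ± 0.12 in WD mice (SD, n = 9), a log2 fold change of -0.48 (limma adjusted p = 0.0456). Its control mean of 10.58 ± 0.33 was close to that of WQ mice. The call of Pdia3 between WQ and WD mice is not firm. No gene of the array passed there in limma without the variance trend, with the mean of all probe sets, or without WD replicate 7. Without the 8 arrays, 15 of the 32 were higher and 1 was lower in WD than in control mice, and P4hb, the disulfide isomerase PDI, was lower in WQ than in WD mice beside Pdia3 (-0.25, limma adjusted p = 0.0496, against -0.28 and 0.0691 with all arrays).

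Another list held sensors, eIF2alpha kinases and phosphatases, and related genes such as Nfe2l2 and Dnajc3. Of its 19 measured genes, 6 were higher in WD than in control mice and none was lower (median 0.11). They included Atf6 itself (0.35, limma adjusted p = 0.0113) and its relatives Creb3 (0.41), Creb3l1 (0.59) and Creb3l3 (1.80). The amino acid sensor Eif2ak4 (0.36) and Dnajc3 (0.23, limma adjusted p = 0.0407) were also among them. Creb3l3, a factor best known from liver, had a low signal, 4.94 ± 0.64 in WQ, 5.43 ± 0.71 in WD and 3.63 ± 1.14 in control mice, and its difference without the 8 arrays was 1.81 (limma adjusted p = 0.00891). Creb3l1 and Eif2ak4 did not pass without them (0.46 and 0.13), and the count became 3 higher and 2 lower. Eif2ak3, which encodes PERK, had the smallest p of the list between WQ and WD mice and did not pass (-0.25, limma adjusted p = 0.245). Nfe2l2 was next (-0.22, limma adjusted p = 0.278).

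Of 27 genes of translocation into the ER and of transport out of it, 8 were higher and none was lower in WD than in control mice (median 0.11). Kdelr3, a receptor that returns chaperones to the ER, had 0.68, the coat protein Sec24d 0.61, the signal peptidase subunit Sec11c 0.47 and the GTPase Sar1a 0.30. Without the 8 arrays 9 were higher and 3 lower, and Sar1a did not pass (limma adjusted p = 0.0517). None of the list passed between WQ and WD mice, and Spcs3 had the smallest p (-0.27, limma adjusted p = 0.134), ahead of Sec24d (-0.33, limma adjusted p = 0.191).

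Of 25 degradation genes, 2 were higher and 3 lower in WD than in control mice. The median was 0.016, and -0.019 without the 8 arrays, with the same counts. The channel protein Derl1 (-0.52, limma adjusted p = 0.000760), the ligase Syvn1 (-0.31) and the membrane selenoprotein Selenos (-0.27) were lower, and Sel1l, the partner of Syvn1, was higher (0.36, limma adjusted p = 0.000372). Herpud1, a further part of this machinery, had -0.25 and did not pass. Between WQ and WD mice none passed, with Derl1 at 0.38 (limma adjusted p = 0.0879) and Syvn1 at 0.29 (limma adjusted p = 0.141).

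Of 39 targets of ATF4 and CHOP, 4 were higher and 4 lower in WD than in control mice (median -0.05). Ddit4, an inhibitor of mTORC1, had 0.85, Chac1, which degrades glutathione, 0.69, and the hormone Fgf21 1.15. The asparagine synthetase Asns had -0.59 (limma adjusted p = 0.00477) and the aminotransferase Gpt2 had -0.62 (limma adjusted p = 0.00189). Chac1 (0.33) and Fgf21 (0.68) did not pass without the 8 arrays, and 4 were then higher and 9 lower. Fgf21 had a low signal, 4.66 ± 0.84 in WQ, 5.10 ± 0.55 in WD and 3.95 ± 1.11 in control mice. Fgf21, like Creb3l3, is best known from liver, and the part of liver tissue in these values was not tested. Between WQ and WD mice Eif4ebp1, a repressor of translation, was the only one of the list that passed (0.38, limma adjusted p = 0.0464), with 12.10 ± 0.19 in WQ and 11.72 ± 0.08 in WD mice (SD, n = 9). This call is not firm either, as no gene passed there in the settings named for Pdia3.

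The lists of cytosolic heat shock and of immediate early genes were read for a wider stress response, such as that of handling tissue. Of 16 cytosolic heat shock genes, Cryab (0.60) and Hspb1 (0.31) were higher and Dnaja1 (-0.36) was lower in WD than in control mice, and none of these 3 passed without the 8 arrays (0.63, 0.27 and -0.17). In their place Hsph1 was higher (0.62, limma adjusted p = 0.0362) and St13 lower (-0.22, limma adjusted p = 0.0298), and the median of the list was 0.10, against -0.09 with all arrays. Of 24 immediate early genes, Fosl1 (2.10, limma adjusted p = 0.000304) and Egr2 (1.498, limma adjusted p = 0.00727) were higher, and the median of the list was 0.01. Fosl1 had a low signal, 4.37 ± 1.06 in WQ, 4.85 ± 0.35 in WD and 2.75 ± 0.88 in control mice. Fos passed as well without the 8 arrays (0.73, limma adjusted p = 0.0381), and the median was then 0.21. No gene of either list passed between WQ and WD mice. The smallest p values were those of Hspb8 (0.27, limma adjusted p = 0.330) and Hspb1 (-0.18, limma adjusted p = 0.506), and of Klf6 (-0.25, limma adjusted p = 0.312) and Klf2 (-0.32, limma adjusted p = 0.564).

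**Figure D5:**
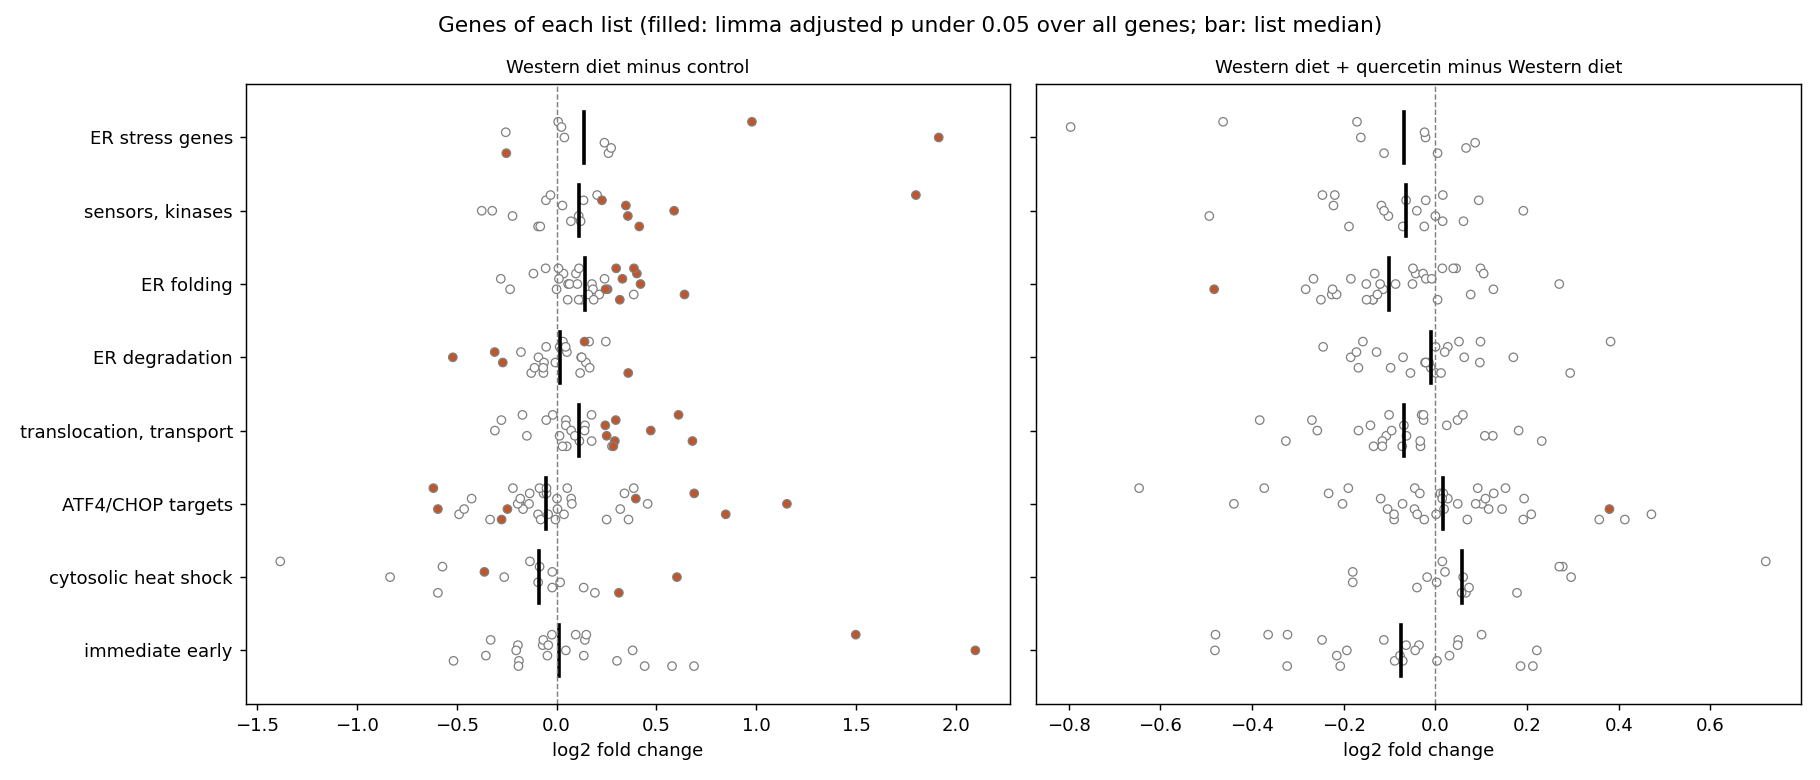
Log2 fold changes of single genes in the 10 ER stress genes and 7 lists of related genes, for WD against control mice on the left and WQ against WD mice on the right, with filled points past the threshold and the bar the median of the list. The filled points of ER folding, and of translocation and transport, are all on the right of 0 for WD against control mice, and for WQ against WD mice 2 points are filled, Pdia3 and Eif4ebp1. Neither of these 2 calls is firm.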

How the data were processed

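EAT RNA of 27 mice (9 per diet) was measured on Affymetrix mouse genome arrays, grouped by diet from the labels. The deposited values were linear signal intensities per probe set, which the authors made with GeneChip Operation Software, Microarray Suite (MAS5) and GeneSpring, per their methods. Whether and how they were scaled between arrays is not given in the sources used here, and arrays differed in level (medians 25.1 to 54.3, means without the outer 2% at each end 137 to 222). Of 45101 probe sets, 64 controls were dropped, signals were normalized by quantiles, set to at least 1 and converted to log2. Probe sets annotated to several genes (932) or to none (9160) were left out, and of the rest the probe set of highest mean stood for each of 18193 genes. The floor compresses differences of genes of low signal.

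Diets were compared with limma 3.58.1 in R 4.3.3, with 1 mean per diet over 27 arrays, a variance trend and Benjamini-Hochberg adjustment over all genes. Single genes were also tested by exact permutation of mice. The code was tested on simulated data. Python 3.11.15 with matplotlib 3.10.9 was used for the figures. Alternatives were other probe sets or their mean per gene, a shift of arrays to a common median or no scaling, a pseudocount of 16 or a floor of 32, the upper part of the genes by mean signal, limma with array weights or without the trend, the methods' test (Welch's ANOVA, then Tukey's), fits of 2 diets, a replicate block, an adjusted p under 0.01, and each array left out. Leaving out the 8 arrays with markers of other tissues (a mean over 4 log2 units above the median array, or over 2 for lymph node) was chosen after seeing the data. The members and lists were chosen with earlier results of these data known. Besides all 10 members, the text names up to 4 genes of each list past the threshold with the largest change for WD against control and up to 3 for WQ against WD, or else the 2 with the smallest p, and the 3 genes most like each member. Asns, Atf6 and Dnajc3 were named after their values were seen. So were P4hb, Hsph1, St13, Fos, C1qa, C1qb, C1qc, Fcgr1 and Fcgr3, which passed in the fit without the 8 arrays. The number of arrays limits the precision.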

Additional observations from a re-analysis of the deposited data

Results flagged for a closer look

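Of the 30 sets of 9 values (10 genes in 3 diets), 5 had a mouse apart from the others by Dixon's test at the 95% level, by its gap to the next mouse, and chance gives this in about 1 of 20 sets. WD replicate 1 had a log2 signal of 8.88 for Ddit3, with the next WD mouse at 8.38. Control replicate 6, with high testis markers, had 9.54 for Atf4, the lowest of its diet, with the next at 10.03. WD replicate 6, with high hepatocyte markers, had 11.65 for Xbp1, the lowest of its diet, with the next at 11.96. Control replicate 3, with high lymph node markers, had 8.26 for Atf3, the highest of its diet, with the next at 7.26. Control replicate 7 had 9.99 for Dnajb9, the lowest of its diet, with the next at 10.42.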

How the results depend on the processing

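The rise of Atf3 in WD over control mice passed under all 14 other settings (log2 fold changes between 1.79 and 2.28) and with any 1 array left out (1.81 to 2.08), and that of Sdf2l1 under 13 of the 14 (0.91 to 1.43) and with any 1 array left out (0.87 to 1.12). The fall of Xbp1 failed under 6 settings and without 4 of the 27 arrays, the higher Atf3 of WQ over control mice under 9 settings and without 12 arrays, and the lower Herpud1 under 7 settings but with no single array left out. The causes were not tested.

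Members called in WD against control mice (3 in the main setting) were 5 with genes above the median mean, array weights or a replicate block, 1 by the methods' test with Benjamini-Hochberg, and 2 to 5 with 1 array left out. In WQ against control mice (2) they were 0 with no normalization, a median shift, 2 diets in the fit or an adjusted p under 0.01, 1 with a floor of 32, a pseudocount of 16, the mean of all probe sets, no trend or the methods' test with Benjamini-Hochberg, 4 with array weights, and 1 to 4 with 1 array left out. In WQ against WD mice they were 0 under every setting tried. With array weights all genes called rose as well, to 4130 in WD against control mice and 1741 in WQ against control mice. Among the genes above the median mean, a smaller set without Trib3, 2838 were called in WD against control mice. The count of all genes with a replicate block is not given for that comparison.

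All genes called in WD against control mice (3219) were 1817 with no normalization, 1996 by the methods' test with Benjamini-Hochberg and 1697 at an adjusted p under 0.01, and 2712 to 3982 with 1 array left out. In WQ against WD mice (60) they were 3 with no normalization or a median shift, 0 with the mean of all probe sets, no trend or an adjusted p under 0.01, 200 with genes above the median mean, 1381 with array weights, 1004 and 1408 by the methods' test with and without Benjamini-Hochberg, 772 with 2 diets in the fit, 8 with a replicate block, 281 without the 8 arrays, and 0 (without WD replicate 7) to 305 (without control replicate 6) with 1 array left out. In WQ against control mice (1211) they were 306 with no normalization, 501 with a median shift, 437 with 2 diets in the fit, 299 at an adjusted p under 0.01, 2261 by the methods' test without Benjamini-Hochberg, and 706 to 1859 with 1 array left out.

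The replicate numbers did not pair the mice: of 27 pairs of same-numbered mice from 2 diets, 10 had a correlation of deviations over 0.1 (lowest -0.51, highest 0.37), and 4 best matched their own number. With the replicate block Hspa5 and Dnajb9 passed in WD over control mice (limma adjusted p = 0.0377 and 0.0430), and 8 genes in all passed in WQ over WD mice.

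Signs changed for values that were not called in any of the fits concerned. In WD against control mice, Hsp90b1 had -0.086 with the mean of all probe sets and -0.20 at its other probe set, and Atf4 had -0.067 with array weights and -0.040 without the 8 arrays. In WQ against WD mice, Hsp90b1 had 0.035 with no normalization, Dnajb9 had -0.091 after the median shift and -0.0026 with array weights, and Ddit3 had 0.0024 and Trib3 -0.032 with the mean of all probe sets. At other probe sets Xbp1 had -0.17, Trib3 -0.13, Atf4 0.013 and 0.071, Ddit3 0.026 and Hspa5 0.24 in WQ against WD mice. In WQ against control mice, Atf4 had 0.062 and Hsp90b1 -0.18 with the mean of all probe sets, and at other probe sets Xbp1 had 0.20, Hsp90b1 -0.37, and Atf4 0.21 and 0.14. With 1 array left out, values in WD against control mice ran between -0.078 and 0.033 for Atf4, -0.037 and 0.12 for Ddit3, and -0.014 and 0.086 for Hsp90b1. In WQ against WD mice they ran between -0.062 and 0.055 for Ddit3, -0.085 and 0.015 for Hsp90b1, and -0.028 and 0.054 for Dnajb9, and in WQ against control mice between -0.047 and 0.097 for Ddit3 and -0.027 and 0.036 for Hsp90b1. The median of all genes moved by less than 0.1 under each scaling. Trib3, below the median mean, was not in the fit of genes above it, and its low signal over background limits its precision.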
